A study of Mus musculus with 2 samples.

Results

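Principal cells are the epithelial cells of the kidney's connecting tubule and collecting duct that take up sodium and water. Vasopressin acts on its V2 receptor and cAMP to move the water channel aquaporin-2 to the apical membrane and to raise its transcription, and water leaves through aquaporin-3 and aquaporin-4 at the basolateral side. Aldosterone acts through the mineralocorticoid receptor to increase the epithelial sodium channel ENaC, while Hsd11b2 protects that receptor from cortisol or corticosterone, and potassium is secreted through the channel ROMK (Kcnj1).

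Cells were chosen by a gate on UMI counts, a UMI being 1 counted RNA molecule. P is the sum of Aqp2, Aqp3 and Scnn1g (ENaC gamma subunit) UMIs. A gated cell had 3000 to 150000 UMIs, at most 55% mitochondrial UMIs, a P of at least 10 UMIs and 0.05% of its total, no Ptprc UMI, and a P above each of the corresponding sums for the distal convoluted tubule (Slc12a3 and Trpm6), the thick ascending limb (Slc12a1 and Umod), the proximal tubule (Lrp2 and Slc34a1) and intercalated cells (Slc4a1, Aqp6 and Slc26a4). In all, 356 of 30367 deposited barcodes met these conditions.

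Each of the 2 libraries came from 1 kidney of a wildtype C57BL/6J male mouse aged 19 weeks, and whether both kidneys came from the same mouse was not given in the sources used here. The ischemic kidney had 27 minutes of ischemia followed by 24 h of reperfusion, and the control was the contralateral kidney without injury, which remained in an animal whose other kidney was injured. Each condition had 1 library, so no test between conditions was possible, cells were not treated as replicates, and every interval below covers counting error only. Differences between these kidneys, the ischemia and the preparation of each library cannot be told apart.

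The control library held 15110 barcodes with 142686238 UMIs and the ischemic library 15257 barcodes with 142959737 UMIs. The filters on UMIs and mitochondrial share kept 6862 and 5997 barcodes. Gated cells numbered 196 in the control kidney, which was 2.86% of the kept barcodes (Clopper-Pearson 95% interval 2.48 to 3.28), and 160 in the ischemic kidney, which was 2.67% (2.27 to 3.11). These intervals overlap, and dissociation can also set such shares. Together the control cells of the gate held 4568565 UMIs and the ischemic cells 4916343, with medians of 19452.5 and 22661.5 UMIs and 4093 and 4745 genes per cell. The libraries shared 88 barcodes, of which 0 were gated cells.

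Mitochondrial transcripts made up 19.1% of the gated cells' pooled UMIs in the control and 12.7% in the ischemic kidney. All 13 mitochondrially encoded genes were lower in the ischemic library, from mt-Atp8 at 0.42 times control to mt-Co3 at 0.70 times control. The other genes are compared below as CPM, the UMIs of a gene per 1000000 UMIs of all gated cells of the library, mitochondrial UMIs included.

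The gate genes themselves are given as a description, since they chose the cells. Aqp2 (chr15:99579055-99584547 on GRCm38, plus strand) had 4037 CPM in control cells and 2106 CPM in ischemic cells, 0.52 times control. Aqp3 had 1041 and 393 CPM, 0.38 times control, and Scnn1g had 361 and 262 CPM, 0.73 times control. The quartiles of single cells were 1106 and 5342 CPM of Aqp2 in the control and 813 and 3182 CPM in the ischemic kidney, so the ranges overlapped widely. In proximal tubule cells, which should lack the gene, Aqp2 stood at 11.2 CPM in control cells and 3.47 CPM in ischemic cells, and the source of these UMIs was not tested.

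The threshold on P was not a sharp border. Just inside it, at a P of 10 to 12 UMIs, were 9 control and 6 ischemic cells with 1768 and 1058 CPM of Hsd11b2, which the gate did not use. Among barcodes with a P of 7 to 9 UMIs that met the other conditions, 12 control and 14 ischemic barcodes had 754 and 1019 CPM of Hsd11b2. Requiring 0 UMIs of Ptprc, a leukocyte gene, removed 36 control and 45 ischemic cells, of which 25 and 30 had a single Ptprc UMI.

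Markers not used by the gate were present in both libraries. Hsd11b2 had 1847 CPM in control cells and 1160 CPM in ischemic cells, and Fxyd4, a sodium pump subunit of the collecting duct, had 2714 and 1947 CPM. Elf5, a transcription factor of principal cells, had 57.3 and 58.4 CPM, and Gata3 had 236 and 144 CPM. Vasopressin receptor Avpr2 and ENaC beta subunit Scnn1b were found in each library as well.

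The label of collecting duct principal cells held only in part, because other distal markers were abundant in the gated cells. The 4 connecting tubule markers Calb1, Slc8a1, S100g and Klk1 summed to 27900 CPM in control cells and 12775 CPM in ischemic cells. The most abundant was S100g, a calcium-binding protein, with 13473 and 6985 CPM. The 6 intercalated markers summed to 1584 and 860 CPM, led by the proton pump subunit Atp6v1g3 at 832 and 617 CPM. The cells are therefore called Aqp2-gated cells here.

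The 5 proximal tubule markers summed to 824 and 373 CPM, led by Kap at 535 and 294 CPM. Thick ascending limb markers summed to 155 and 111 CPM and distal convoluted tubule markers to 98.1 and 23.2 CPM, with Pvalb at 0 in the ischemic library. Slc14a2 was the only detected one of the 3 thin limb markers in the control, while Bst1 and Sptssb were at 0. The 4 urothelial markers summed to 0.876 CPM in the control, where Upk1b, Upk3a and Krt5 were at 0, and to 15.1 CPM in the ischemic library, led by Upk3a at 8.34 CPM, where 1 cell held all 41 Upk3a UMIs and 96.2% of the 26 Krt5 UMIs. Macrophage markers summed to 10.1 and 18.9 CPM, led by Cd74, and neutrophil markers to 1.09 and 4.27 CPM. Endothelial markers summed to 7.66 and 12.4 CPM, stroma to 4.82 and 2.64 CPM, podocytes to 1.97 and 2.24 CPM, and B cells to 0.438 and 0.407 CPM, and both T cell markers, Cd3e and Trbc2, were at 0. The part of these transcripts in the differences below was not tested, except where values without the cells that carry them are given.

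The gated cells were divided into 3 groups to show which values go with which markers. In 82 of the 196 control cells (41.8%, 34.8 to 49.1) and 79 of the 160 ischemic cells (49.4%, 41.4 to 57.4) the summed UMIs of Calb1, Slc8a1 and S100g were at or above P. In 45 control cells (23%, 17.3 to 29.5) and 25 ischemic cells (15.6%, 10.4 to 22.2) the intercalated genes Foxi1, Atp6v1g3 and Atp6v0d2 summed to at least 10 UMIs. The latter cells form the intercalated gene group, the remaining cells of the former kind, 67 in each library, form the connecting tubule gene group, and the rest, 84 control and 68 ischemic cells, form the low group. Median UMIs were 45109 and 55048 in the intercalated gene group, 19493 and 18555 in the connecting tubule gene group, and 11175 and 24511.5 in the low group. Scrublet called 3 of the 196 control and 0 of the 160 ischemic gated cells as doublets. Among all kept barcodes it called 110 of 6862 in the control and 70 of 5997 in the ischemic library. The limit of 10 UMIs for the intercalated gene group was not scaled to the UMIs of a cell. Whether that group held doublets beyond these calls was not tested.

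Between the libraries, 8223 genes had at least 100 UMIs over both and were compared. Of these, 330 (4.01%) were at least 2-fold higher and 374 (4.55%) at least 2-fold lower in the ischemic kidney. Each count of list genes below is to be read against these shares, or within a cell group against the shares of that group. Leaving mitochondrial genes out of the totals moved the median log2 ratio of all genes from -0.08 to -0.19 and gave 251 higher and 491 lower genes. Centring on the median ratio gave 396 higher and 298 lower genes, so the balance of higher and lower genes depended on the scaling. A gene with few UMIs in 1 library could reach the minimum only through the other, where it was higher. Of the list genes past 2-fold, this held with under 50 UMIs in the control for Isg15, Cxcl2, Ccl20, Hk2 and Pdgfb and with under 50 UMIs in the ischemic library for Tsc22d3, Zbtb16, Krt80 and Egf, besides those named with their lists below.

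Genes of tubule injury were higher in the ischemic gated cells. Of 27 listed genes, 18 had enough UMIs. Of these, 15 were at least 2-fold higher in the ischemic kidney and 0 were 2-fold lower, against 4.01% and 4.55% of all genes. In the control, 2 of the 18 had under 50 UMIs and passed the minimum only through the ischemic library. The median log2 ratio of the 18 was 1.45, against -0.08 over all 8223 genes. Of the 9 genes below the minimum, 5 had a higher and 2 a lower CPM in the ischemic library, and the other two had under 10 UMIs.

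Spp1 encodes the secreted phosphoprotein osteopontin, which injured tubules release, and lies at chr5:104435118-104441050. It had 3064 CPM (3013 to 3115) in control cells and 27114 CPM (26969 to 27260) in ischemic cells, 8.85-fold higher. The median cell had 1719 CPM in control cells and 20952 CPM in ischemic cells, and the upper quartile of the control cells, 3592 CPM, lay below the lower quartile of the ischemic cells, 14139 CPM.

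Clu, at chr14:65968483-65981547, encodes clusterin, a secreted chaperone. It had 1352 CPM in control cells and 15621 CPM in ischemic cells, 11.6-fold higher (11.3 to 11.9). The quartiles of single cells, 89.0 to 1671 CPM in control cells and 8061 to 22691 CPM in the ischemic kidney, did not overlap either.

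Lcn2, at chr2:32384633-32388252, encodes the iron-siderophore binding protein NGAL, a urinary marker of tubule injury. It was already abundant in the control gated cells at 1616 CPM and reached 7824 CPM in the ischemic kidney, 4.84-fold higher (4.72 to 4.96). Cells differed widely, with quartiles from 0 to 1301 CPM in control cells and from 215 to 11037 CPM in the ischemic kidney, which overlapped.

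Other injury genes included Tnfrsf12a, the receptor of the cytokine TWEAK, which had 17.3 CPM in control cells and 124 CPM in ischemic cells, 7.16-fold higher. Cdkn1a, the cell cycle inhibitor p21, had 12 and 57.0 CPM, 4.73-fold higher, but 36.4% of its 55 control UMIs came from 1 cell, and in the low group it had 38 and 102 UMIs, 1.73-fold higher and so short of 2-fold. Among calcium-binding S100 proteins, S100a11 had 913 and 2172 CPM and S100a10 had 156 and 407 CPM. Sox4 and Plaur were 2.62-fold and 2.82-fold higher. Itgb6 was 2.65-fold, Anxa2 2.23-fold and Gdf15 2.02-fold higher, but under the 13 alternative settings these 3 passed 2-fold in 11, 11 and 7, with lowest ratios of 1.76, 1.79 and 1.75. Sprr1a was 24.0-fold higher, but 60.9% of its ischemic UMIs came from 1 cell. Havcr1 (KIM-1) and Sox9, named after their values were seen, fell short of the UMI minimum, with 4 and 60 UMIs of Havcr1 and 5 and 88 UMIs of Sox9 in the control and ischemic kidney.

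**Figure D1:**
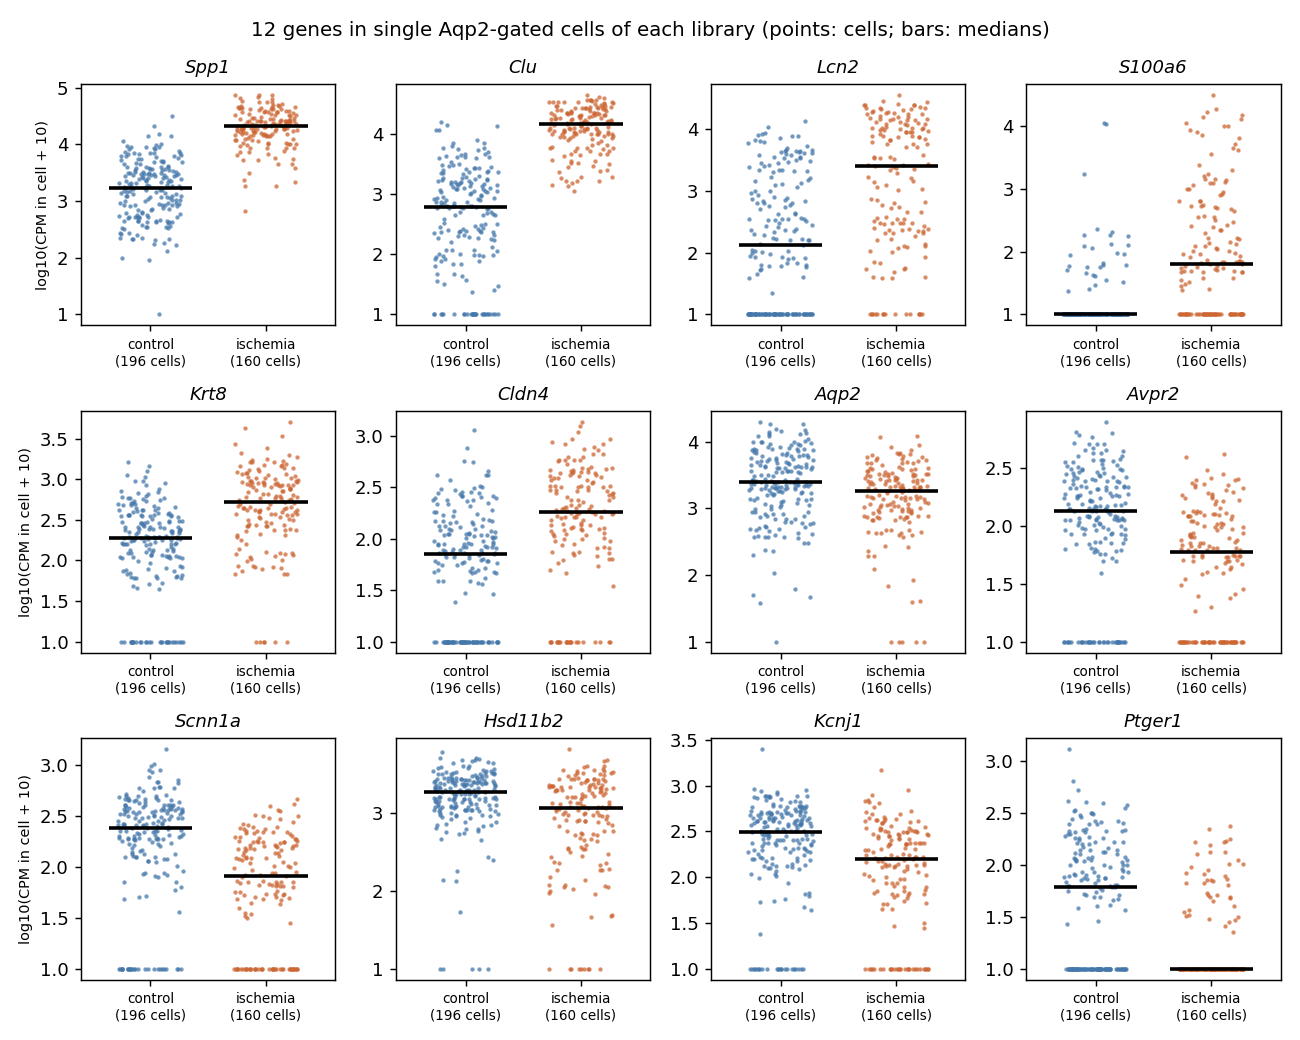
Level of 12 genes in single Aqp2-gated cells (log10 of CPM in the cell plus 10, vertical axis) in the control (196 cells) and ischemic (160 cells) library, with a point per cell and a bar at the median. The ischemic medians of Spp1 and Clu lie above the upper quartile of the control cells, while those of Avpr2, Scnn1a and Kcnj1 are lower in the ischemic library and the cells overlap.

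Some keratins and claudins also differed between the libraries. Krt8 and Krt18, the paired keratins of simple epithelia, had 275 and 437 CPM in control cells and 744 and 1016 CPM in the ischemic kidney, 2.70-fold and 2.33-fold higher. Krt19 was 6.63-fold higher, from 14.2 to 94.4 CPM, and Krt7 had 544 and 1000 CPM, 1.84-fold higher. Krt80 had 20.4 and 8.54 CPM, 0.42 times control. In all, 3 of the 7 keratins compared were at least 2-fold higher and 1 was 2-fold lower, against 4.01% and 4.55% of all genes.

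Of 15 junction genes compared, 2 were at least 2-fold higher and 1 was 2-fold lower, against 4.01% and 4.55% of all genes. Their median log2 ratio in the pooled cells, -0.06, was near the -0.08 over all genes. The counts became 1 and 1 without mitochondrial genes in the totals and 2 and 0 with centring. By group, the median was -0.25 in the low group, 0.82 in the connecting tubule gene group and -0.17 in the intercalated gene group. The medians of all genes compared there were -0.10, 0.15 and -0.14. Cldn4, a claudin that seals the paracellular route to sodium and passes chloride in the collecting duct, had 97.0 and 278 CPM, 2.87-fold higher (2.57 to 3.20). Cldn3 was 2.13-fold higher, with 26.7 and 56.7 CPM. Cldn8, the partner of Cldn4 in the collecting duct, had 189 and 91.1 CPM, 0.48 times control. Cldn3 passed 2-fold in 9 and Cldn8 in 10 of the 13 alternative settings. The adhesion protein gene Epcam was at 616 and 609 CPM, 0.99 times control, and Cdh16, a kidney cadherin, at 939 and 637 CPM.

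Water transport genes apart from the gate genes showed a mixed pattern. Of 16 genes of vasopressin signaling and water transport compared, 0 were at least 2-fold higher and 3 were 2-fold lower, against 4.01% and 4.55% of all genes. The median log2 ratio was -0.28, against -0.08 over all genes. Avpr2, the V2 receptor at chrX:73892102-73895502, had 156 CPM (145 to 168) in control cells and 63.1 CPM (56.2 to 70.5) in ischemic cells, 0.40 times control. Its quartiles in single cells were 57.7 to 233 CPM and 0 to 110 CPM, so the cells overlapped.

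Aqp4 had 367 and 128 CPM, 0.35 times control. Slc14a2, the urea transporter UT-A, had 116 and 24.8 CPM, but 63.3% of the control UMIs came from 1 cell. The cAMP pathway genes Gnas and Prkaca differed little, with log2 ratios of 0.03 and -0.04, Adcy6 had a log2 ratio of -0.71, and Ezr, the membrane linker ezrin, had 381 and 489 CPM. Of 6 tonicity genes compared, 0 were 2-fold higher or lower, or 1 higher with centring, with Nfat5, which drives osmolyte genes, at 175 and 130 CPM and the aldose reductase Akr1b3 at 256 and 158 CPM. For Akr1b3, 36.1% of the control UMIs came from 1 cell, the median cell went from 0 CPM in the control to 55.1 CPM in the ischemic kidney, and the groups differed in direction, at 0.35 times control in the low group and 3.08-fold higher in the connecting tubule gene group.

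Of 15 genes of ENaC and the mineralocorticoid response, 5 were at least 2-fold lower, against 4.55% of all genes, and 0 were 2-fold higher, with a median log2 ratio of -0.67. Centring left 4 of them 2-fold lower. All 15 had ratios below 1, as did 57.7% of all genes compared. In the connecting tubule gene group, 1 of 8 genes compared was 2-fold lower, against 1.38% of all genes there, and the median was -0.21. Under each of the 3 scalings of the totals, 0 of these 15 had a ratio above 1. The list was chosen with earlier results of these data known.

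Scnn1a, the ENaC alpha subunit at chr6:125320659-125344943, had 269 CPM (254 to 284) in control cells and 95.8 CPM (87.3 to 105) in ischemic cells, 0.36 times control. Scnn1b had 365 and 267 CPM, 0.73 times control. No test between the alpha and beta subunits was possible with 1 library per condition, and the gamma subunit chose the cells. Hsd11b2 was at 0.63 times control and the mineralocorticoid receptor Nr3c2, with 447 and 286 CPM, at 0.64 times control.

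Besides Scnn1a and Wnk1, the genes of this list past 2-fold were Per1, Tsc22d3 and Zbtb16. Per1, a clock gene induced by aldosterone, had 34.4 and 13.0 CPM, 0.38 times control, and Tsc22d3 (GILZ) had 24.5 and 9.56 CPM, 0.39 times control. Zbtb16 had 21.0 and 9.97 CPM, 0.47 times control. Sgk1, the kinase that retains ENaC at the membrane, had a log2 ratio of -0.42, Usp2 of -0.57 and Fkbp5 of -0.47, none of them past 2-fold. Nedd4l, the ubiquitin ligase that removes the channel, had 573 and 354 CPM, but was 1.51-fold higher (1.32 to 1.74) in the connecting tubule gene group.

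Wnk1, a kinase whose kidney isoform is expressed in the distal tubule, had 462 and 102 CPM, 0.22 times control. In the low group, with few connecting tubule or intercalated UMIs, it had 91.8 and 50.03 CPM, 0.55 times control, so that most of the pooled level came from the other cells.

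Of 10 potassium channel and sodium pump genes compared, 1 was 2-fold lower and 0 were 2-fold higher in the pooled cells, against 4.55% and 4.01% of all genes. By group, 3 of 10 were 2-fold lower in the low group, against 7.49% of all genes compared there. In the intercalated gene group 2 of 10 were lower, against 6.31%, and in the connecting tubule gene group 0 of 10, against 1.38%. Kcnj1, the secretory channel ROMK, had 322 and 159 CPM, 0.50 times control, and passed 2-fold in 7 of the 13 alternative settings. Centring on the median ratio left 0 of these genes past 2-fold. The pump subunit Atp1b1 had a log2 ratio of -0.07, and Fxyd4 was at 0.72 times control.

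Collecting duct transcription factors had ratios below 1 in 20 of 21 genes compared, against 57.7% of all genes, with a median log2 ratio of -0.42. Only 1 of the 21 was 2-fold lower, a share near the 4.55% of all genes. By group, 5 of 19 were 2-fold lower in the low group, against 7.49% of all genes compared there, 3 of 19 in the intercalated gene group, against 6.31%, and 0 of 16 in the connecting tubule gene group, against 1.38%. Hes1, a target of Notch signaling, which maintains principal cell fate, had 375 and 166 CPM, 0.44 times control. Mecom had 1180 and 881 CPM, and Tfcp2l1, a regulator of both collecting duct cell types, had 754 and 436 CPM. Elf5 was the only gene of the list with a ratio above 1, at 1.02 times control, which leaving out mitochondrial genes from the totals turned below 1.

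**Figure D2:**
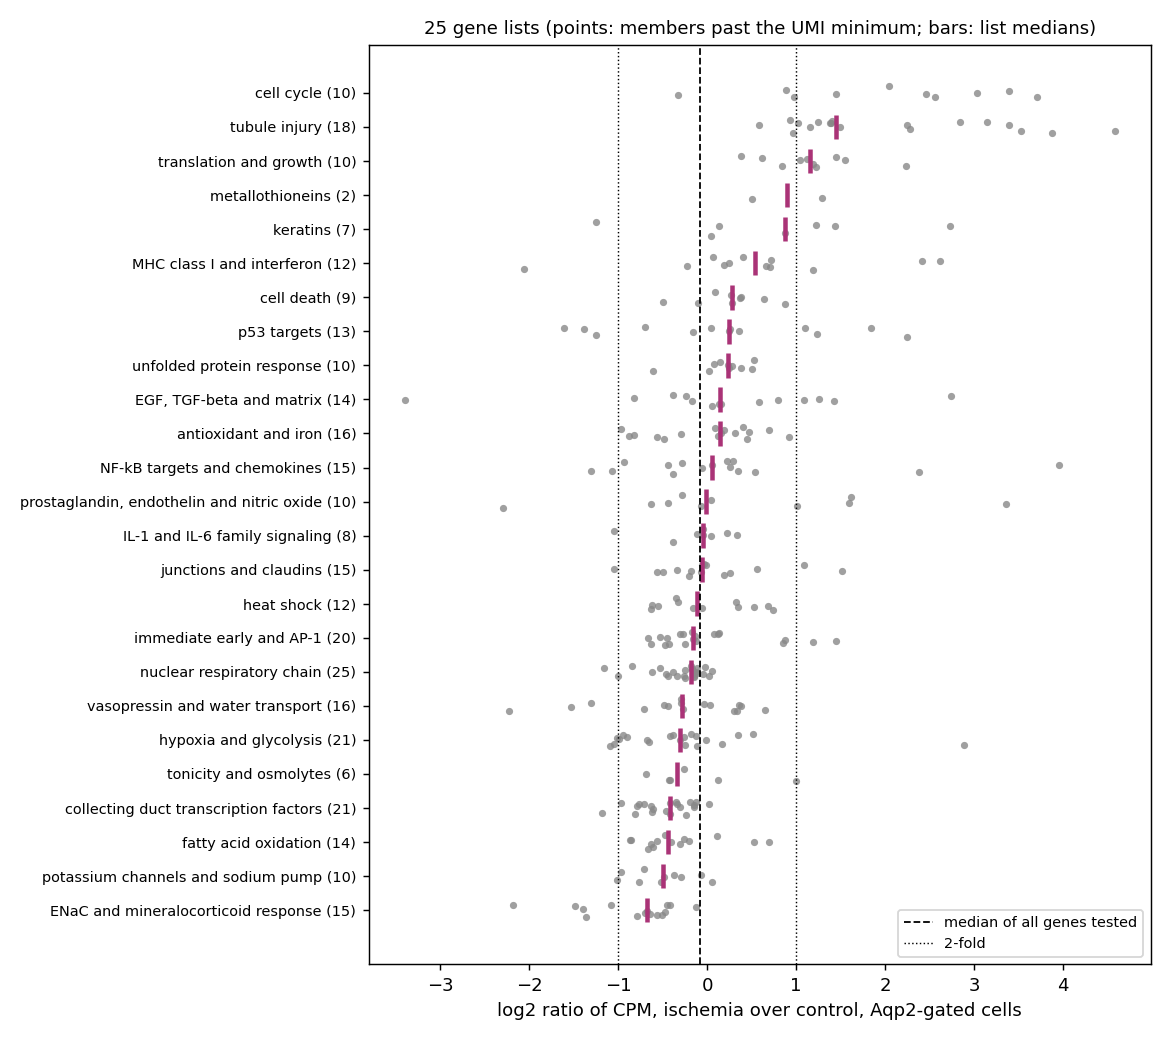
Log2 ratio of CPM, ischemia over control (horizontal axis), of the members of 25 gene lists in the Aqp2-gated cells, with a point per gene that had at least 100 UMIs, a bar at each list's median, not drawn for the cell cycle list because the minimum sets it in part, and the number of genes after its name. Tubule injury genes have a median of 1.45, and ENaC and mineralocorticoid genes have the lowest median, -0.67, against -0.08 over all genes (dashed line).

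Of the 12 genes with the highest ratio, all but Clu and S100a6 had under 50 control UMIs and reached the UMI minimum through the ischemic library. The 12 were led by Sprr2f, an envelope protein of stratified epithelia. Its symbol belongs to a family of similar genes, and counts may be split between them. Sprr2f had 3.94 CPM in control cells and 548 CPM in ischemic cells, 139-fold higher (87.8 to 235), with 66.7% of its 18 control UMIs from 1 cell. In the other gates it reached at most 3.81 CPM in the ischemic library, in the intercalated gate, and 2.20 CPM in proximal tubule cells. Within the gated cells it was found in each group, with 852 CPM in the low group, 477 CPM in the intercalated gene group and 218 CPM in the connecting tubule gene group of the ischemic kidney. The urothelial markers sum to 15.1 CPM in the ischemic gated cells and lay mostly in 1 cell. The cell with most Sprr2f held 13.5% of its ischemic UMIs. Whether urothelial cells gave any of the Sprr2f UMIs was not tested.

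The promoters of a gate gene and of the gene with the highest ratio are shown to give the sequence behind the gate and behind the top of the list. In the 250 bases before the RefSeq start (GRCm38.p6), Aqp2 (chr15:99578806-99579055, plus strand) holds 1 GATA motif, AGATAA on either strand, and Sprr2f (chr3:92364937-92365186, plus strand) holds 1 AP-1 motif, TGANTCA, and 1 TATA motif, TATAAA. Motifs are in capitals.
Aqp2: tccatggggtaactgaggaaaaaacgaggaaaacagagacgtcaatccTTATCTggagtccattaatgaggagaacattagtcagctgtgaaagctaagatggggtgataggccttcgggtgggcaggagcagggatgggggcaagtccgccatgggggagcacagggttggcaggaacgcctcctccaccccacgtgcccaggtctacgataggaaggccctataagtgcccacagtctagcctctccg
Sprr2f: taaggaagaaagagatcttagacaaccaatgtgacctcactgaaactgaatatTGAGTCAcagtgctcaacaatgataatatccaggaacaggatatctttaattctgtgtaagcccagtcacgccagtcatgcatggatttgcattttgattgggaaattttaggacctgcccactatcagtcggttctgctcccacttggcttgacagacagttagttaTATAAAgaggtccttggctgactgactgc
Of 32851 promoters of the same length, 9.99% held the GATA motif, 6.75% the AP-1 motif and 12.4% the TATA motif. The AP-1 and TATA motifs do not overlap, both strands were searched, and a match describes the sequence only.

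Clu and S100a6 were the most abundant of the 12. S100a6 had 183 and 1918 CPM, 10.47-fold higher, but 46.5% of the control UMIs and 18.6% of the ischemic UMIs came from 1 cell each. Anxa3, an annexin, had 1.75 and 25.6 CPM, and Emp2, an epithelial membrane protein, 3.06 and 42.1 CPM. The metalloprotease Adam12 and the serine protease Prss22 had 3 and 2 control UMIs against 117 and 98 ischemic UMIs, with ratios of 36.2 (12.1 to 178) and 45.5 (12.3 to 381).

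The remaining genes of the 12 were Creb5, a transcription factor of the CREB family, at 1.31 and 29.7 CPM, the uncharacterised Gm32461 at 7.88 and 151 CPM, the heparan sulfate enzyme Hs3st1 at 1.97 and 23.2 CPM, and the replication genes Mcm3 at 2.19 and 28.5 CPM and Rrm2 at 2.63 and 27.7 CPM. Adam12 and Gm32461 were concentrated outside the connecting tubule gene group, where they had 0.728 and 15.3 CPM in the ischemic kidney, against 35.1 and 216 CPM in the low group.

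Among the 12 genes with the lowest ratio, Ranbp3l was first, with 174 CPM in control cells and 15.9 CPM in ischemic cells, 0.09 times control (0.07 to 0.12). In the low group it had 323 and 16.5 CPM, and in the connecting tubule gene group 7.22 and 8.73 CPM. Ptger1, the prostaglandin E2 receptor EP1, which inhibits sodium uptake in the collecting duct, had 88.0 and 17.9 CPM, 0.20 times control. In each of the other tubule gates it stood below 5 CPM in both libraries. Of these 12 genes, Abca13, AU021092, Adhfe1, Clnk, Cyp4a14, Pck1 and Ppp1r1a had under 50 ischemic UMIs and reached the UMI minimum through the control.

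Several of these 12 genes are known from other cells. Pck1 and Cyp4a14 are proximal tubule genes, at 524 and 357 CPM in control proximal tubule cells, and had 26.0 and 21.5 CPM in the control gated cells and 4.47 CPM each in the ischemic gated cells. Every other gate held them too, for example distal convoluted tubule cells with 39.3 and 27.1 CPM in the control. Atp6v1c2, a proton pump subunit, and Clnk had 121 and 26.5 CPM in control cells and 24.8 and 4.88 CPM in the ischemic kidney, and 529 of 551 and 110 of 121 of their control UMIs lay in the intercalated gene group.

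The others were the linker histone gene Hist1h1c at 138 and 28.5 CPM, the sulfotransferase Chst9 at 74.6 and 13.4 CPM, the transporter Abca13 at 55.6 and 9.76 CPM, AU021092 at 40.5 and 7.53 CPM, the mitochondrial enzyme Adhfe1 at 26.5 and 4.47 CPM, and the phosphatase inhibitor Ppp1r1a at 19.0 and 3.05 CPM. Chst9 and Hist1h1c were both lower in the low group, where they had 139 and 214 CPM in control cells and 28.2 and 24.5 CPM in the ischemic kidney.

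**Figure D3:**
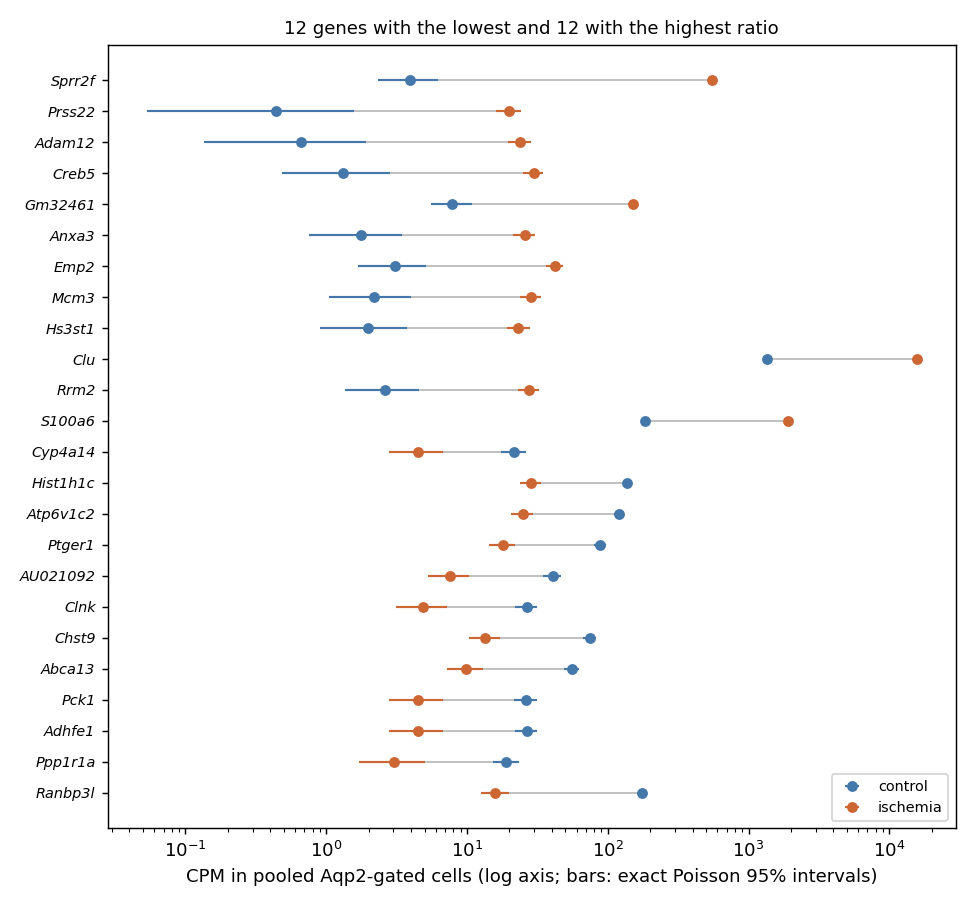
CPM in the pooled Aqp2-gated cells (horizontal log axis) of the 12 genes with the lowest and the 12 with the highest ratio of ischemia to control, with a point per library and bars for exact Poisson 95% intervals. The genes were chosen for these ratios, so the distance between the libraries is a description, and Clu and S100a6 are the most abundant of them.

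All 10 genes of translation and growth had ratios above 1 in the pooled cells and 7 were at least 2-fold higher, against 4.01% of all genes. The median log2 ratio of the list was 1.16. Srm and Myc, which are among the 7, had 26 and 30 control UMIs and reached the UMI minimum through the ischemic library. By group, 4 of 8 were 2-fold higher in the low group, 5 of 8 in the intercalated gene group and 0 of 7 in the connecting tubule gene group, against 6.23%, 4.70% and 4.05% of all genes compared there. Npm1, a nucleolar protein of ribosome assembly, had 230 and 672 CPM, 2.92-fold higher, and Ncl, nucleolin, 233 and 482 CPM. Srm, which makes spermidine, was 4.72-fold higher and Myc 2.73-fold higher, both from under 10 CPM in the control. Myc passed 2-fold in 12 of the 13 alternative settings, but was only 1.07-fold higher with cells thinned to 3000 UMIs. The elongation factor gene Eef1a1 had 1432 and 2572 CPM, 1.80-fold higher.

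Cell cycle genes were scarce. Of 17 listed genes, 10 reached the UMI minimum, and 7 of these, Mcm2, Mcm3, Mcm4, Mcm5, Mcm6, Rrm2 and Top2a, had under 50 UMIs in the control and reached it through the ischemic library. A count of 2-fold higher genes or a median over the list is therefore set in part by the minimum and is not given. Within the groups at most 2 genes of the list could be compared, with 0 of 2 past 2-fold in the low group, 0 of 1 in the connecting tubule gene group and 1 of 2 higher in the intercalated gene group. The helicase subunits Mcm4, Mcm5 and Mcm6 had 22.6, 18.1 and 29.7 CPM in the ischemic kidney, 4.13-fold, 5.51-fold and 5.90-fold higher. Pcna had 40.5 and 75.1 CPM, 1.85-fold higher, and Ccnd1, the most abundant, 511 and 406 CPM, a log2 ratio of -0.33. For Top2a, a gene of the later cycle, 26.8% of the 97 ischemic UMIs came from 1 cell.

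Of 20 immediate early genes compared in the pooled cells, 2 were at least 2-fold higher and 0 were 2-fold lower, against 4.01% and 4.55% of all genes. The 2 were Myc, with the limit given above, and Klf4. Klf4 had 15.5 and 35.4 CPM and passed 2-fold in 8 of the 13 alternative settings. Fos had 1610 and 1299 CPM and Junb 1231 and 776 CPM in libraries made from enzyme-digested tissue. The groups differed in direction, with a median log2 ratio of 0.48 in the connecting tubule gene group, where Fos and Junb were 1.39-fold and 1.41-fold higher, -0.36 in the low group, where they were at 0.77 and 0.54 times control, and -0.60 in the intercalated gene group. In the pooled cells, 0 of 12 heat shock genes and 0 of 10 unfolded protein response genes compared passed 2-fold in either direction, with Hspa8 at 1.6 times control and Hspa5 at 1.05 times control. Within the groups, 1 heat shock gene was 2-fold higher and 1 lower of 11 in the low group, and 1 unfolded protein response gene was higher of 8 in the connecting tubule gene group.

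The p53 target list had 13 genes compared. Of these, 4 were at least 2-fold higher and 3 were 2-fold lower, against 4.01% and 4.55% of all genes. The higher ones were Cdkn1a, Plk2, Aen and Bax, with Bax at 63.3 and 136 CPM. The lower ones were Gadd45b, Gadd45g and Sesn1. Mdm2, Ccng1 and Gadd45a had log2 ratios of -0.16, 0.05 and 0.35. In the low group 1 of 6 was higher and 2 were lower. The connecting tubule gene group had 2 of 4 higher and 0 lower, and the intercalated gene group 2 of 7 higher and 2 lower. Plk2 and Aen had 23 and 37 control UMIs and reached the UMI minimum through the ischemic library. Gadd45b, a stress sensor, had 186 and 61.0 CPM, 0.33 times control, and Gadd45g had 165 and 63.5 CPM, 0.38 times control. Of 9 cell death genes compared in the pooled cells, 0 passed 2-fold in either direction.

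Inflammatory genes gave no common direction. Of 15 NF-kB targets and chemokines compared, Ccl20 and Cxcl2 were 2-fold higher, but 66.7% and 28.7% of their ischemic UMIs came from 1 cell each. Il34, a ligand of the macrophage receptor Csf1r, had 41.4 and 16.7 CPM, 0.40 times control, and Tnfaip3 had 25.2 and 12 CPM. Of 8 genes of IL-1 and IL-6 signaling compared, Lifr was 2-fold lower at 23.2 and 11.2 CPM, which held in 7 of the 13 alternative settings, and centring left 0 genes of the list past 2-fold. Il1r1, the interleukin-1 receptor that the study is about, had 27.1 CPM (22.6 to 32.4) in control cells and 28.1 CPM (23.6 to 33.2) in ischemic cells.

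Of 12 interferon and antigen presentation genes compared, Ifitm3, Bst2 and Isg15 were at least 2-fold higher, against 4.01% of all genes. Ifitm3, a membrane protein that restricts virus entry, had 32.8 and 201 CPM, 6.13-fold higher, and Bst2 had 25.8 and 58.8 CPM. By group, Ifitm3 was 6.11-fold higher in the low group. In the connecting tubule gene group it had 20 and 11 UMIs, 0.50 times control (0.22 to 1.09). For Isg15, 44.3% of the ischemic UMIs came from 1 cell. Irf1, a transcription factor of interferon signaling, went the other way with 151 and 36.2 CPM, 0.24 times control.

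Of 10 genes of prostaglandin, endothelin and nitric oxide signaling compared, 4 were at least 2-fold higher and 1 was 2-fold lower, against 4.01% and 4.55% of all genes. However, 3 of the 4, Edn1, Ptger3 and Ptger4, had 16, 39 and 41 control UMIs and reached the UMI minimum through the ischemic library. Edn1, endothelin-1, which inhibits sodium uptake in the duct, had 3.50 CPM in control cells and 36 CPM in ischemic cells, 10.3-fold higher (6.16 to 18.4). The converting enzyme gene Ece1 had 13.4 and 26.8 CPM, 2.01-fold higher, but passed 2-fold in only 3 of the 13 alternative settings, with a lowest ratio of 1.575. Among the prostaglandin E2 receptors, Ptger4 had 8.97 and 27.1 CPM and Ptger3 had 8.54 and 26.2 CPM, against the lower level of Ptger1 given above. Of the Ptger3 UMIs in the ischemic kidney, 119 of 129 lay in the intercalated gene group, and the low group had 3 and 4 UMIs. The synthases Ptges and Ptgs1 were at 0.95 and 0.65 times control.

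Of 14 growth factor and matrix genes compared, 4 were at least 2-fold higher and 1 was 2-fold lower, against 4.01% and 4.55% of all genes. Among the higher ones were Hbegf, a ligand of the EGF receptor, with 129 and 309 CPM, 2.39-fold higher, Pdgfb with 5.69 and 15.3 CPM, and the receptor Tgfbr1 with 97.2 and 206 CPM. For Pdgfb, 57.7% of the 26 control UMIs came from 1 cell, and in the low group it had 2 and 40 UMIs, a ratio of 12.9 (3.34 to 110). The lower one was Egf, with 23.6 and 2.24 CPM, and 38.0% of its control UMIs came from 1 cell.

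Of 25 nuclear genes of the respiratory chain and its regulators compared, 2 were at least 2-fold lower and 0 were 2-fold higher, against 4.55% and 4.01% of all genes. Ratios below 1 were found for 23 of the 25, against 57.7% of all genes, with a median log2 ratio of -0.18 against -0.08 over all genes. Centring left 4 ratios above 1 and 1 gene 2-fold lower, and the median in the low group was 0.11. The 2 lower genes in the pooled cells were Ppargc1a and Esrra. Ppargc1a, a coactivator that drives mitochondrial biogenesis, was at 245 and 110 CPM, 0.45 times control. The receptor Esrra, its partner, was at 42.9 and 21.4 CPM, 0.50 times control, and passed 2-fold in 8 of the 13 alternative settings. Of 14 fatty acid oxidation genes, 11 had ratios below 1, against 57.7% of all genes, and 0 passed 2-fold in the pooled cells. Their median log2 ratio was -0.44, against -0.08 over all genes. Of 21 hypoxia and glycolysis genes, Vegfa, Pfkfb3 and Pdk1 were 2-fold lower, with Vegfa at 91.1 and 42.7 CPM. Of these, Pdk1 passed 2-fold in 7 and Pfkfb3 in 8 of the 13 alternative settings. Hk2 was 7.38-fold higher, but 58.8% of its 17 control UMIs and 25.9% of its ischemic UMIs came from 1 cell each. It fell short of 2-fold in the low group, at 1.93-fold, and with cells thinned to 3000 UMIs, at 1.575-fold. The 3 lower genes of this list became 6 without mitochondrial genes in the totals and 1 with centring.

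Of 16 antioxidant and iron genes, 0 passed 2-fold in the pooled cells, although leaving out mitochondrial genes from the totals gave 1 lower gene and centring gave 1 higher gene. By group, 2 of 15 were lower in the low group and 1 of 16 in the intercalated gene group. In the connecting tubule gene group, 1 of 14 was higher and 1 lower. In the pooled cells, the ferritin genes Fth1 and Ftl1 had 2310 and 1266 CPM in control cells and 3728 and 1726 CPM in the ischemic kidney. The metal-binding metallothionein Mt2 was 2.46-fold higher, with 79.0 and 194 CPM, and Mt1 1.42-fold higher. In the low group Mt2 had 22.3 and 204 CPM, 9.13-fold higher.

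The 3 groups of gated cells differed in several of these values. Genes were compared within each group by the same limit, which in the low group left 4350 genes, of which 6.23% were 2-fold higher and 7.49% 2-fold lower. The connecting tubule gene group left 3404 genes with 4.05% higher and 1.38% lower, and the intercalated gene group 5211 genes with 4.70% and 6.31%. With 1 library per condition, no difference between the groups could be tested. P entered the rule that formed the groups, and the limits were set after values had been seen.

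Aqp2 had 6707 and 3175 CPM in the low group, 0.47 times control, and 4168 and 1482 CPM in the intercalated gene group, 0.36 times control. In the connecting tubule gene group it had 1227 and 1400 CPM, 1.14 times control. These values are a description, since Aqp2 is part of P. Avpr2 was at 0.42 times control in the low group, 0.44 in the connecting tubule gene group and 0.27 in the intercalated gene group. Scnn1a was at 0.29, 0.51 and 0.32 times control.

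Of the injury genes compared, 11 of 17 were at least 2-fold higher in the low group, 11 of 12 in the connecting tubule gene group and 14 of 16 in the intercalated gene group. The shares of all genes in the same order were 6.23%, 4.05% and 4.7%. Clu had 621 and 16131 CPM in the low group, 26.0-fold higher, and 3284 and 20178 CPM in the connecting tubule gene group, 6.14-fold higher. Spp1 was 10.1-fold higher in the low group, 4.98-fold in the connecting tubule gene group and 12.2-fold in the intercalated gene group. Lcn2 was low in control cells of the connecting tubule gene group, at 25.7 CPM, and had 560 CPM in the ischemic kidney, 21.8-fold higher, while the low group had 2759 and 12432 CPM, 4.51-fold higher.

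Gdf15 had 17.6 and 475 CPM in the connecting tubule gene group, 26.9-fold higher, and 892 and 1616 CPM in the low group, 1.81-fold higher. Gadd45b had opposite directions, with 313 and 54.3 CPM in the low group, 0.17 times control, and 18.4 and 65.5 CPM in the connecting tubule gene group, 3.55-fold higher. Irf1 had 265 and 49.5 CPM in the low group, 0.19 times control, and 38.5 and 33.5 CPM in the connecting tubule gene group, 0.87 times control.

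The calcium transport genes of the connecting tubule gene group were themselves lower. Calb1, calbindin, had 5344 and 1077 CPM there, 0.20 times control, and Slc8a1, a sodium-calcium exchanger, had 11142 and 2917 CPM, 0.26 times control. Both belong to the sum that defined the group, so these values are a description.

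**Figure D4:**
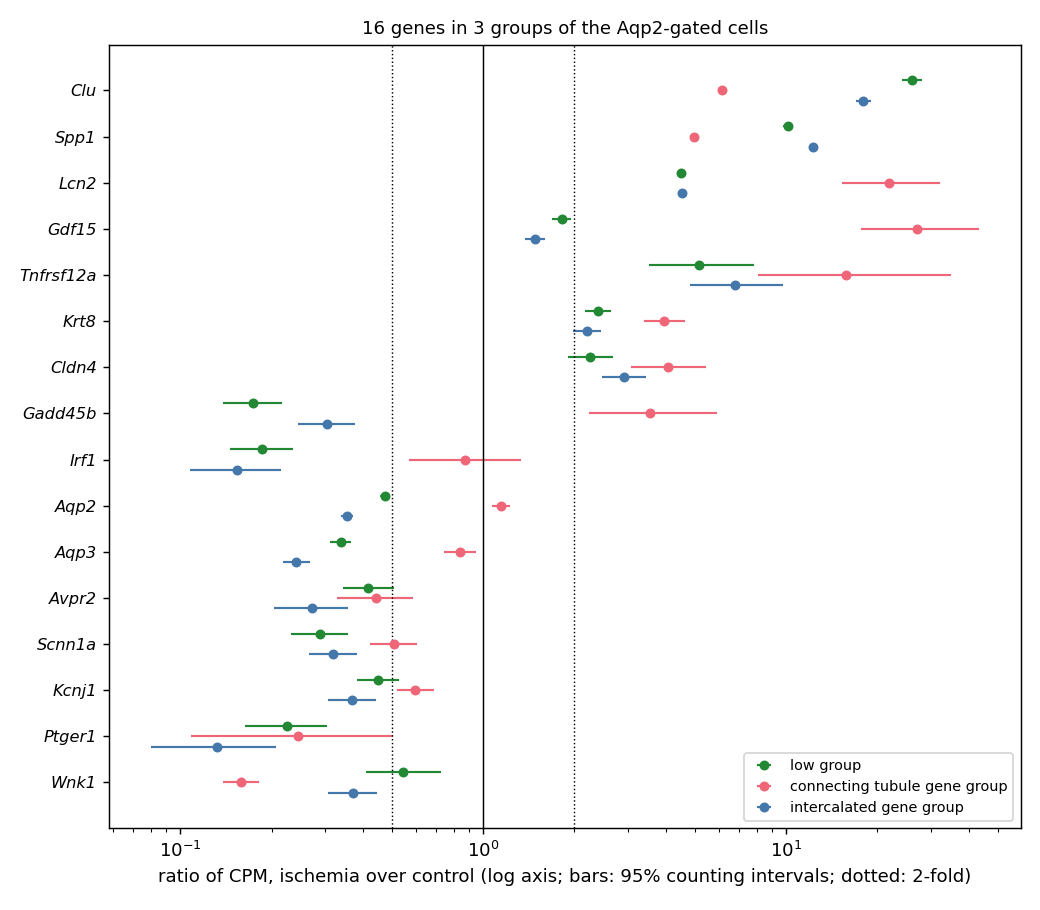
Ratio of CPM, ischemia over control (horizontal log axis), of 16 genes in the low, connecting tubule gene and intercalated gene groups of the Aqp2-gated cells, with bars for 95% counting intervals and dotted lines at 2-fold. Clu, Spp1 and Lcn2 lie right of the upper line in each group, Aqp2 and Gadd45b lie left of 1 in 2 groups and right of 1 in the connecting tubule gene group.

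Spp1, Clu and Lcn2 were also higher in the ischemic library in other tubule cells chosen by the same kind of gate. The distal convoluted tubule gate held 522 control and 303 ischemic cells, the thick ascending limb gate 792 and 654, the intercalated gate 99 and 48, and the proximal tubule gate 3406 and 2037. Spp1 was 8.15-fold higher in distal convoluted tubule cells, 6.54-fold in thick ascending limb cells, 12.5-fold in intercalated cells and 10.1-fold in proximal tubule cells. Clu reached 8677 CPM in ischemic distal convoluted tubule cells, 7029 CPM in thick ascending limb cells, 5858 CPM in intercalated cells and 88.4 CPM in proximal tubule cells, below the 15621 CPM of the Aqp2-gated cells.

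Lcn2 differed between the gates already in the control kidney. Its control level was 1616 CPM in the Aqp2-gated cells, 408 CPM in thick ascending limb cells, 21.6 CPM in distal convoluted tubule cells, 13.1 CPM in intercalated cells and 5.40 CPM in proximal tubule cells. In the ischemic kidney, the levels in the same order were 7824, 4898, 2861, 703 and 43.2 CPM. Krt8 and Cldn4 had their highest levels among these gates in the Aqp2-gated cells, in both libraries. No test of a difference between gates exists with 1 library per condition.

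Some lower genes of the Aqp2-gated cells had the opposite direction elsewhere. Irf1 was 2.60-fold higher in distal convoluted tubule cells and 2.34-fold in thick ascending limb cells, and in each other tubule gate its ischemic level was between 16.8 and 27.2 CPM, against 36.2 CPM in the Aqp2-gated cells. Its control level there, 151 CPM, stood apart from the 5.21 to 19.1 CPM of those gates. Scnn1a was lower in every gate that expressed it, at 0.55 times control in distal convoluted tubule cells and 0.39 times control in thick ascending limb cells. Hes1 was at 1.04 times control in distal convoluted tubule cells and 1.11 times control in intercalated cells, against 0.44 in the Aqp2-gated cells.

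**Figure D5:**
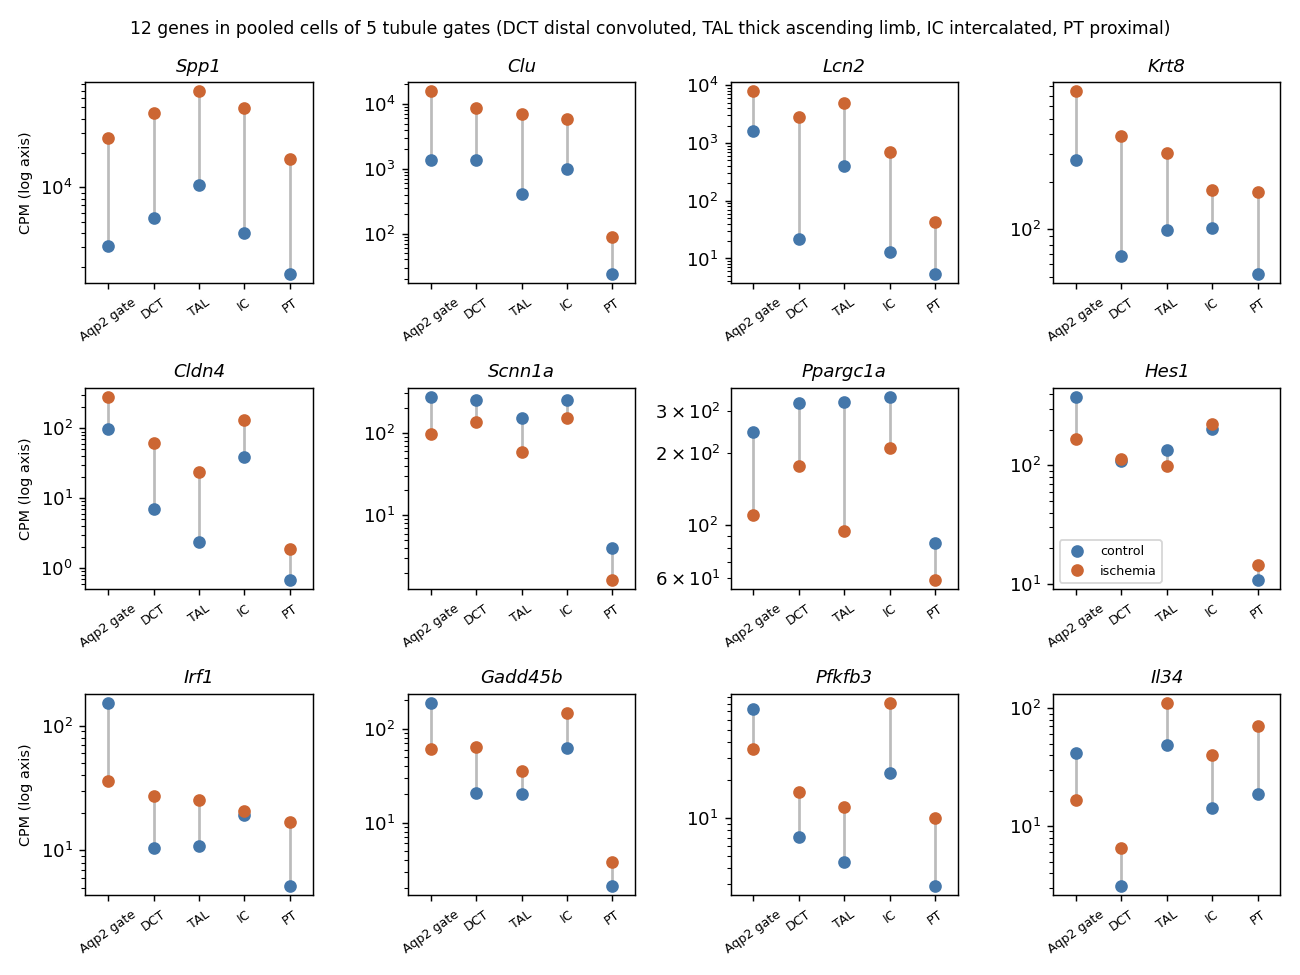
CPM (vertical log axis, a scale of its own for each gene) of 12 genes in the pooled cells of 5 tubule gates, with a point per library. Spp1, Clu and Lcn2 are higher in the ischemic library in every gate, and Irf1, Gadd45b, Pfkfb3 and Il34 are lower in the Aqp2-gated cells and higher in the other gates, by only 1.08-fold for Irf1 in intercalated cells.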

How the data were processed

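The authors deposited raw UMI counts per gene and barcode for each library, not normalized, made from 10x Genomics 3' v2 libraries. Per the labels, Cell Ranger 7.0.0 and mm10 were used; the annotation release was not given in the sources used here. The counts list 32285 genes and include barcodes of high mitochondrial share. The paper's other experiments were not analysed here.

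Counts were read with Python 3.11.15 (numpy 2.4.6, scipy 1.17.1, pandas 2.3.3). UMIs were summed over the gated cells of each library and scaled to CPM. Poisson, ratio (conditional binomial) and share (Clopper-Pearson) intervals are exact at 95% and cover counting error only. A library at 0 was taken at 3 counts. Genes with at least 100 UMIs over both libraries, mitochondrial genes excepted, were compared by a limit of 2-fold, since 1 library per condition allows no test. Of the 32285 genes, 32235 had a GENCODE position on GRCm38, the build of mm10; promoters are from RefSeq. Doublets were called with Scrublet (scanpy 1.11.5).

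The genes named were the 12 highest and 12 lowest ratios (a UMI in at least 20 cells of the higher library, no cell above 25% of its UMIs, gate genes excepted), the gate genes and, for each of 25 lists, the 2 most abundant members and those past 2-fold. Genes outside this rule were named after their values were seen. Some genes that the rule names are not reported here. Members, lists and limits were chosen with earlier results of these data known. The ratio was tested on simulated data. Alternatives changed the mitochondrial and UMI limits, P, the gate genes, doublets, scaling, thinning and the UMI minimum per gene; those on Ptprc and on intercalated genes, and the 3 groups, were added after seeing the data.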

Additional observations from a re-analysis of the deposited data

Results flagged for a closer look

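In all, 6 genes named in the Aqp2-gated cells were past 2-fold in 1 direction there and past 2-fold in the other direction in another tubule gate. With 1 library per condition these differences were not tested. Values are ratios of CPM, ischemia over control. Pfkfb3, a regulator of glycolysis, was at 0.48 in the Aqp2-gated cells and at 2.31 in distal convoluted tubule, 2.72 in thick ascending limb and 3.57 in intercalated cells. Within the Aqp2-gated cells it was at 0.24 in the low group and 1.16 (0.77 to 1.77) in the connecting tubule gene group. Gadd45b was at 0.33, against 3.08 in distal convoluted tubule and 2.39 in intercalated cells. Irf1 was at 0.24, against 2.60 in distal convoluted tubule and 2.34 in thick ascending limb cells. Within the connecting tubule gene group of the Aqp2-gated cells, Gadd45b was at 3.55 and Irf1 at 0.87. Il34 was at 0.40, against 2.26 in thick ascending limb cells, and Zbtb16 at 0.47, against 3.42 in distal convoluted tubule cells. Ptger3 went the other way, at 3.07 in the Aqp2-gated cells and at 0.41 in distal convoluted tubule and 0.33 in thick ascending limb cells, and most of its UMIs lay in the intercalated gene group.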

How the results depend on the processing

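No paired analysis was possible because each condition had 1 library, and for the same reason no library could be left out. The shares of kept barcodes in the gate, 2.86% in the control and 2.67% in the ischemic kidney, became 3.94% and 3.30% with at most 25% mitochondrial UMIs, 3.35% and 3.58% with at least 6000 UMIs per cell, 2.33% and 2.20% with a P of at least 20 UMIs and 0.1%, 3.28% and 3.15% with a gate on Hsd11b2, Scnn1b and Fxyd4, and 3.38% and 3.42% with Ptprc at any count. The 374 lower genes became 653 without the cells in which connecting tubule genes were at or above P and 205 without those of the intercalated gene group. Thinning each cell to 3000 UMIs left 1428 genes, 114 higher and 62 lower. A minimum of 30 UMIs per gene gave 574 higher and 697 lower genes, and a minimum of 1 UMI in each library gave 1263 and 1877. Of 98 named genes past 2-fold, 63 stayed past it under each of the 13 alternatives that gave them a ratio. Not every gene had a ratio under all 13, and Adam12, Anxa3, Clnk and Prss22 had a ratio under only 10. The other 35 fell short under at least 1, and Ccl20 reversed, to 0.44 times control with a P of at least 20 UMIs. The 35 were Ccl20, Ece1, Gdf15, Kcnj1, Lifr, Pdk1, Esrra, Klf4, Pfkfb3, Bax, Cldn3, Ncl, Nop56, Ptger3, Tgfbr1, Cldn8, Vegfa, Zbtb16, Aen, Anxa2, Cdkn1a, Hk2, Il34, Itgb6, Krt80, Tnfaip3, Wnk1, Bst2, Hes1, Krt18, Myc, Plaur, Ppargc1a, Ptger4 and Sesn1. The causes of these changes were not tested. Of the 25 lists, the median log2 ratio changed sign between the 3 scalings for 4, the junction, NF-kB, IL-1 and IL-6, and prostaglandin lists.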
